A study of Homo sapiens with 9 samples.

Results

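CPLX1 (complexin-1) and 7 genes that work with it or repress genes of its kind were followed through RNA sequencing of Huh7 cells, a human hepatocellular carcinoma line. The 8 genes, CPLX1, CPLX2, STX1A, SNAP25, SNAP23, VAMP2, VAMP3 and REST, were taken by symbol from the 32906 listed genes, and all were listed. CPLX1 was chosen by its large difference in FPKM between the siRNAs used here, so its values are given as a description with no test. The other 7 were taken by name, though with earlier results of these data known. Their p-values are thus not free of that knowledge. The cells had been transfected for 48 hours with a scrambled siRNA (Scramble) or with an siRNA against KDM4C, a histone lysine demethylase (Si-KDM4C#1 or Si-KDM4C#2), with 3 libraries per group and 9 in all. Every group was this same line and had received an siRNA, so no untransfected cells stand beside them. The study states in general that its experiments were repeated independently, while the sample labels do not say whether these replicates were separate cultures. If they were not, the p-values measure only technical spread between the libraries.

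Membrane fusion in exocytosis is driven by SNARE proteins. A syntaxin and a SNAP25-family protein on the plasma membrane (Q-SNAREs) zip together with a VAMP on the vesicle (an R-SNARE) and pull the membranes into contact. Complexins bind the assembled bundle and, with synaptotagmins, hold and time calcium-triggered fusion in neurons and endocrine cells. REST is a zinc finger repressor that keeps neuronal genes silent in other cell types by recruiting corepressors with histone deacetylases and demethylases, and genes of the neuronal release machinery are among its known targets.

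The deposited values were FPKM, fragments scaled by exon length and library total, which puts genes and libraries on a common scale. The library total does not correct for differences in the make-up of the libraries. The main fit added no further normalization, and quantile normalization was run as an alternative. Depth was 14597503 to 18058557 fragments per library, and the groups lay apart on the first pair of principal components (49% and 32.2% of the variance). KDM4C was at 4.88, 4.63 and 4.57 FPKM in Scramble, 1.18, 1.10 and 1.13 after Si-KDM4C#1, and 0.256, 0.349 and 0.256 after Si-KDM4C#2. The target mRNA was thus lower in all 6 knockdown libraries than in any Scramble library. Its mean FPKM in Scramble was 4.12 times that after Si-KDM4C#1 and 16.4 times that after Si-KDM4C#2. Log2 fold changes were taken on FPKM + 1, which understates changes of low genes. For KDM4C they were -1.41 ± 0.0765 (SE) after Si-KDM4C#1 (limma adjusted p = 2.65e-07) and -2.15 ± 0.0765 after Si-KDM4C#2 (limma adjusted p = 5.45e-08). Of 12 hepatocyte marker genes, 9 were listed, none passed the filter on low values, and the highest value of any in any library was 0.248 FPKM. Their sum ran from 0.236 to 0.261 FPKM in Scramble, 0.0347 to 0.149 after Si-KDM4C#1 and 0.185 to 0.433 after Si-KDM4C#2. The defining markers AFP, APOA1 and SERPINA1 were near 0 in every group, which goes against the label of hepatocellular carcinoma cells, and ALB, APOB and TTR were not analysed here.

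An siRNA can also act on mRNAs other than its target through the seed of its guide strand (bases 2 to 8), in the manner of a microRNA. The guide was taken as the reverse complement of the sequence printed by the study, and the stretch of 7 bases complementary to its seed was searched in the sense strand of 1 transcript per gene (GENCODE release 29, GRCh38). That stretch is ATGAAGA for Si-KDM4C#1 and CATGATC for Si-KDM4C#2. The windows of 29 bases below are shown because VAMP3, SNAP23, REST and STX1A are the members whose transcripts hold a stretch, which is in capitals.
VAMP3-201, across the stop codon in exon 5 of 5, chr1:7779642-7779648 (+), Si-KDM4C#1: gttgtctcttcATGAAGAaccagcggaac
VAMP3-201, 3′ UTR in exon 5 of 5, chr1:7779875-7779881 (+), Si-KDM4C#1: cgtatgggctgATGAAGAggccttcttaa
VAMP3-201, 3′ UTR in exon 5 of 5, chr1:7780696-7780702 (+), Si-KDM4C#1: ctggcccaaatATGAAGAtaaactataac
SNAP23-201, 5′ UTR in exon 1 of 8, chr15:42495354-42495360 (+), Si-KDM4C#1: attgaaaggcgATGAAGAgcagggaaagc
SNAP23-201, 3′ UTR in exon 8 of 8, chr15:42531802-42531808 (+), Si-KDM4C#1: caaagacagccATGAAGAaggaagctgta
REST-201, coding sequence in exon 4 of 4, chr4:56931875-56931881 (+), Si-KDM4C#1: tcaggaaattgATGAAGAtgaaggcatcc
STX1A-201, coding sequence in exon 10 of 10, chr7:73700470-73700476 (-), Si-KDM4C#2: cggaagaaaatCATGATCatcatctgctg
STX1A-201, 3′ UTR in exon 10 of 10, chr7:73700226-73700232 (-), Si-KDM4C#2: cgtgtcgtgtgCATGATCtctgtgagtgt

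The stretches are common. Among 11110 tested genes with a coding transcript, 47.2% held ATGAAGA at least once and 18.9% held CATGATC. VAMP3-201 held ATGAAGA 3 times, which 2.3% of 2352 transcripts within 20% of its length matched or passed, while 33.5% of them held it at least once. For SNAP23-201, with 2, the share with as many was 12.4% of 2535 transcripts, and for the long REST-201, with 1, it was 71.8% of 1266. STX1A-201 held CATGATC 2 times, as did 0.9% of 2282 transcripts of like length. The transcripts searched for CPLX1, CPLX2, SNAP25 and VAMP2 held neither stretch. A match is a description of the sequence, and its part in any difference below was not tested.

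CPLX1 (ENSG00000168993, chr4:784957-826198, minus strand, GRCh38) was high in 1 group only. It stood at 0.877, 1.35 and 0.941 FPKM in Scramble, at 25.4, 24.6 and 26.9 after Si-KDM4C#1, and at 1.31, 1.78 and 1.33 after Si-KDM4C#2. The lowest library after Si-KDM4C#1 was far above the highest of the other 6, whereas the ranges in Scramble and Si-KDM4C#2 overlapped. In fragments this was 123 over the Scramble libraries, 3021 after Si-KDM4C#1 and 171 after Si-KDM4C#2, so the low groups rest on 32 to 67 fragments per library. The mean was 24.2 times that of Scramble after Si-KDM4C#1 and 1.39 times after Si-KDM4C#2, and Si-KDM4C#1 was 17.4 times Si-KDM4C#2. On the scale of log2(FPKM + 1), which understates changes of low genes, the differences were 3.70, 0.27 and -3.43 (Si-KDM4C#2 minus Si-KDM4C#1). With a pseudocount of 0.1 in place of 1, that after Si-KDM4C#2 was 0.45.

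Among the 14363 genes tested, CPLX1 had rank 1 by absolute log2 fold change after Si-KDM4C#1 against Scramble, with C11orf86 next after it. After Si-KDM4C#2 against Scramble it had rank 7850. Between the siRNAs it had rank 3, after GDF15 and HMGN5 and just before CDKN1A. KDM4C itself was lower after Si-KDM4C#2 than after Si-KDM4C#1, where CPLX1 was high. The part of the KDM4C level in the CPLX1 values was not tested. In bulk RNA, a higher level in every cell and a high level in some of the cells cannot be told apart.

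CPLX2 (ENSG00000145920, chr5:175796310-175884020), the paralog that shares the clamping role, was listed at 0 in 8 libraries and at 0.0273 FPKM, or 3 fragments, in replicate 1 after Si-KDM4C#2. A count of 0 allows up to 0.0289 FPKM in the shallowest library, taking 3 fragments as the floor (counting error only), so CPLX2 was at or below the floor in every library and was not tested. CPLX3 and CPLX4 were not analysed here.

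**Figure D1:**
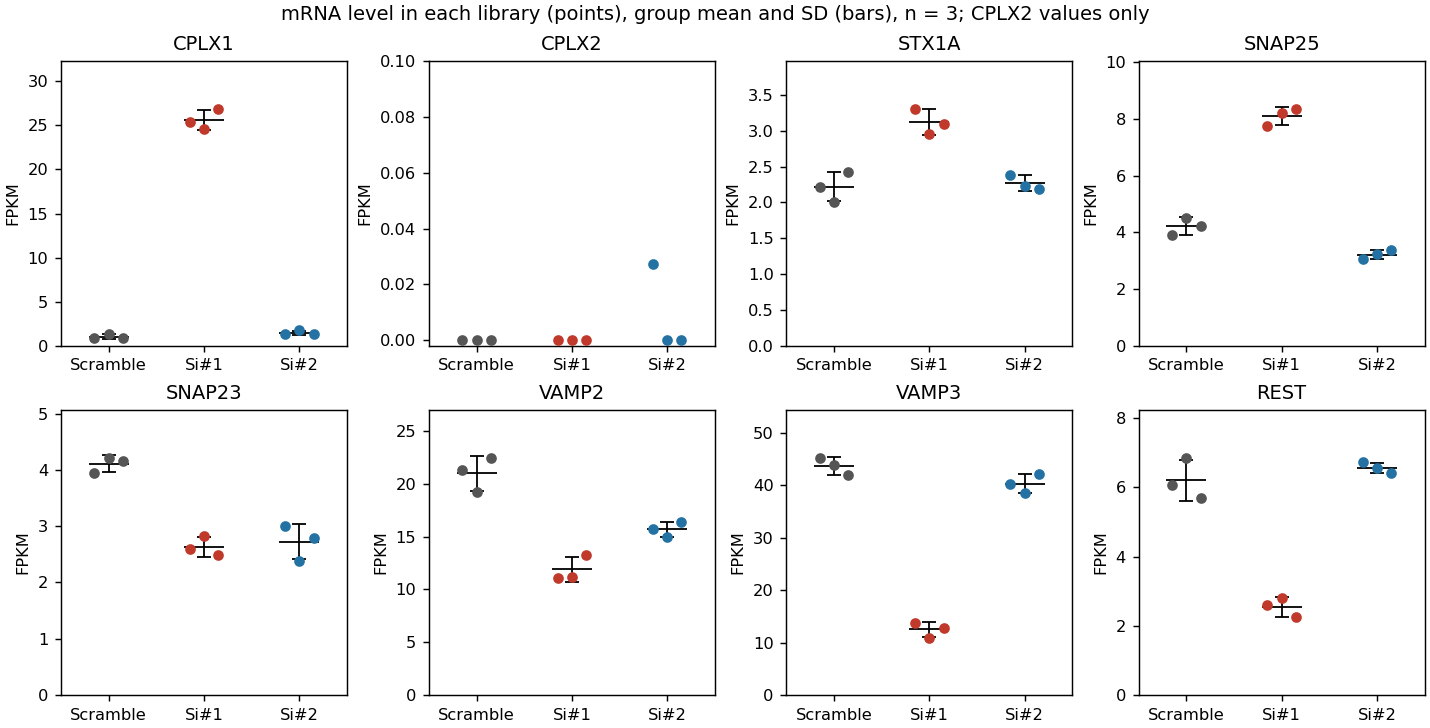
FPKM of each of the 8 genes in each library (points, 3 per group), with the group mean and SD as bars except for CPLX2, on linear axes with a scale of their own per gene. CPLX1 lies between 24.6 and 26.9 FPKM after Si-KDM4C#1 and at or below 1.78 in the other libraries, and VAMP3 and REST are low after Si-KDM4C#1 alone.

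The 6 other members that passed the filter (a group mean of 1 FPKM or more, which each of them reached in Scramble) were tested in limma over all 14363 genes. After Si-KDM4C#1 all 6 passed an FDR of 0.05, 2 higher (SNAP25, STX1A) and 4 lower (VAMP3, REST, VAMP2, SNAP23). Over all tested genes 31.7% passed higher and 33.9% lower, so passing alone does not set the members apart. Of the 6, VAMP3 and REST also passed a fold change of 2, which 8.87% of all genes did. After Si-KDM4C#2 none was higher, 3 were lower (SNAP23, VAMP2, SNAP25), 3 did not pass and 0 passed the fold change, beside 34.4% higher, 25.0% lower and 4.89% past the fold change over all genes. Directly between the siRNAs, 3 were higher after Si-KDM4C#2 (VAMP3, REST, VAMP2), 2 lower (SNAP25, STX1A), 1 did not pass (SNAP23) and 3 passed the fold change, beside 35.9%, 26.5% and 6.91%. The median log2 fold change of the 6 was -0.64, -0.21 and 0.20 in these comparisons, and that of all tested genes was -0.03, 0.06 and 0.08.

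SNAP25 (ENSG00000132639, chr20:10218830-10307418), a plasma membrane Q-SNARE, was higher after Si-KDM4C#1 and lower after Si-KDM4C#2. It is the neuronal member of its family and supplies a pair of helices to the SNARE bundle. Its level was 3.89, 4.51 and 4.24 FPKM in Scramble, 7.75, 8.20 and 8.36 after Si-KDM4C#1 and 3.06, 3.22 and 3.37 after Si-KDM4C#2. The groups did not overlap, and their order was Si-KDM4C#1, Scramble, Si-KDM4C#2 from high to low. The log2 fold change was 0.81 ± 0.0603 (SE) after Si-KDM4C#1 (limma adjusted p = 2.07e-06) and -0.31 ± 0.0603 after Si-KDM4C#2 (limma adjusted p = 0.00176), opposite directions from the same Scramble libraries. Between the siRNAs the difference was -1.11 ± 0.0603 (limma adjusted p = 3.51e-07), and the mean FPKM was 2.52 times higher after Si-KDM4C#1.

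STX1A (ENSG00000106089, chr7:73699206-73719672, minus strand), the syntaxin that pairs with SNAP25 at the synapse, was at 2.22, 2.01 and 2.42 FPKM in Scramble, 3.31, 2.95 and 3.10 after Si-KDM4C#1 and 2.39, 2.23 and 2.19 after Si-KDM4C#2. Each library after Si-KDM4C#1 was above every other, and the other groups overlapped. The log2 fold change was 0.36 ± 0.0715 (limma adjusted p = 0.00155) after Si-KDM4C#1. After Si-KDM4C#2, whose seed stretch its transcript holds 2 times, it was 0.03 ± 0.0715 (limma adjusted p = 0.781), with a 95% interval of -0.14 to 0.19. The sign of this last value changed with the processing. STX1A shares 662 exon bases (17.9% of its exons) with BUD23 on the opposite strand, and whether the authors counted by strand is not given in the sources used here. BUD23 was at 16.9 FPKM in Scramble, 22.2 after Si-KDM4C#1 and 18.3 after Si-KDM4C#2, and its log2 fold changes were 0.37 (limma adjusted p = 1.2e-05) and 0.11 (limma adjusted p = 0.0248). The part of BUD23 reads in the STX1A values was not tested.

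SNAP23 (ENSG00000092531, chr15:42491233-42545356), the broadly expressed relative of SNAP25 that serves exocytosis outside neurons, was lower with both siRNAs. It was at 3.94, 4.22 and 4.16 FPKM in Scramble, 2.59, 2.83 and 2.48 after Si-KDM4C#1 and 3.00, 2.39 and 2.79 after Si-KDM4C#2. All 6 knockdown libraries were below the Scramble range, and the knockdown groups overlapped. The log2 fold changes were -0.49 ± 0.0749 (limma adjusted p = 0.000271) and -0.46 ± 0.0749 (limma adjusted p = 0.000548). The difference between the siRNAs was 0.03 with a 95% interval of -0.14 to 0.20 (limma adjusted p = 0.719), and its sign changed with the processing. SNAP23 shares 221 exon bases (3.75%) with LRRC57 on the opposite strand, which was at 0.22 and -0.74 on the log2 scale, and 1394 bases (23.6%) with AC018362.1, which was not analysed here. Their part in the SNAP23 values was not tested.

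The balance of the SNAP25 family followed these values. SNAP25 made up 49.7, 51.7 and 50.5% of the summed FPKM of SNAP25 and SNAP23 in Scramble, 75.0, 74.3 and 77.1% after Si-KDM4C#1 and 50.5, 57.4 and 54.7% after Si-KDM4C#2. The mean share was 50.6% ± 1.02 (SD, n = 3), 75.5% ± 1.47 and 54.2% ± 3.49. The Si-KDM4C#1 libraries lay above all others, with an exact two-sided permutation p = 0.1 against either group, the smallest that 3 libraries against 3 allow. Scramble and Si-KDM4C#2 overlapped (exact permutation p = 0.2).

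VAMP3 (ENSG00000049245, chr1:7771269-7781432), or cellubrevin, is the R-SNARE of recycling endosomes and constitutive secretion and had the highest level of the 8 genes in Scramble and after Si-KDM4C#2. It was at 45.3, 43.8 and 41.9 FPKM in Scramble, 13.8, 10.9 and 12.7 after Si-KDM4C#1 and 40.2, 38.6 and 42.2 after Si-KDM4C#2. The libraries after Si-KDM4C#1 were all far below the rest, and those after Si-KDM4C#2 overlapped Scramble. The log2 fold change after Si-KDM4C#1 was -1.73 ± 0.0748 (limma adjusted p = 7.06e-08), so that Scramble was 3.50 times higher. After Si-KDM4C#2 it was -0.11 ± 0.0748, with a 95% interval of -0.28 to 0.06 (limma adjusted p = 0.222). That difference passed after quantile normalization (-0.21, limma adjusted p = 0.034) and on recovered fragments (-0.18, limma adjusted p = 0.0104). Between the siRNAs VAMP3 differed by 1.62 ± 0.0748 (limma adjusted p = 1.4e-07). Its transcript is the member with 3 stretches for the Si-KDM4C#1 seed, shown above.

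VAMP2 (ENSG00000220205, chr17:8159149-8163546, minus strand), or synaptobrevin, the R-SNARE of synaptic vesicles and of regulated secretion, was at 21.3, 19.2 and 22.5 FPKM in Scramble, 11.1, 11.2 and 13.3 after Si-KDM4C#1 and 15.7, 15.0 and 16.4 after Si-KDM4C#2. The groups did not overlap, and Scramble was highest and Si-KDM4C#1 lowest. The log2 fold changes were -0.78 ± 0.0769 (limma adjusted p = 1.38e-05) and -0.40 ± 0.0769 (limma adjusted p = 0.00158), and that between the siRNAs was 0.38 ± 0.0769 (limma adjusted p = 0.00181). VAMP2 thus fell with both siRNAs and by more after Si-KDM4C#1, and its transcript held neither seed stretch. AC129492.3 shares 430 of its exon bases (13.2%) on the same strand and was not analysed here.

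VAMP2 made up 32.0, 30.5 and 34.9% of the summed FPKM of VAMP2 and VAMP3 in Scramble, 44.6, 50.6 and 51.0% after Si-KDM4C#1 and 28.0% in each library after Si-KDM4C#2. The means were 32.5% ± 2.27 (SD, n = 3), 48.7% ± 3.58 and 28.0% ± 0.0461. The groups did not overlap, and the exact two-sided permutation p was 0.1 in each of the comparisons, the smallest possible. Both mRNAs were lower after Si-KDM4C#1, with log2 fold changes of -0.78 for VAMP2 and -1.73 for VAMP3.

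REST (ENSG00000084093, chr4:56907876-56966678) was at 6.06, 6.86 and 5.70 FPKM in Scramble, 2.59, 2.81 and 2.24 after Si-KDM4C#1 and 6.72, 6.57 and 6.41 after Si-KDM4C#2. The repressor was low in the libraries where CPLX1 and SNAP25 were high, and Scramble and Si-KDM4C#2 overlapped. The log2 fold change was -1.02 ± 0.0768 after Si-KDM4C#1 (limma adjusted p = 2.08e-06), a mean 2.44 times lower than in Scramble. After Si-KDM4C#2 it was 0.07 with a 95% interval of -0.10 to 0.25 (limma adjusted p = 0.437), and between the siRNAs it was 1.10 ± 0.0768 (limma adjusted p = 1.69e-06). REST shares 23 exon bases (0.288%) with NOA1 on the opposite strand, which had a log2 fold change of 0.70 after Si-KDM4C#1. The REST value after Si-KDM4C#1 stood at the 2-fold limit, and it was -0.96 without Scramble replicate 2, -0.96 without Si-KDM4C#1 replicate 3 and -0.94 after quantile normalization, each still past the FDR.

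**Figure D2:**
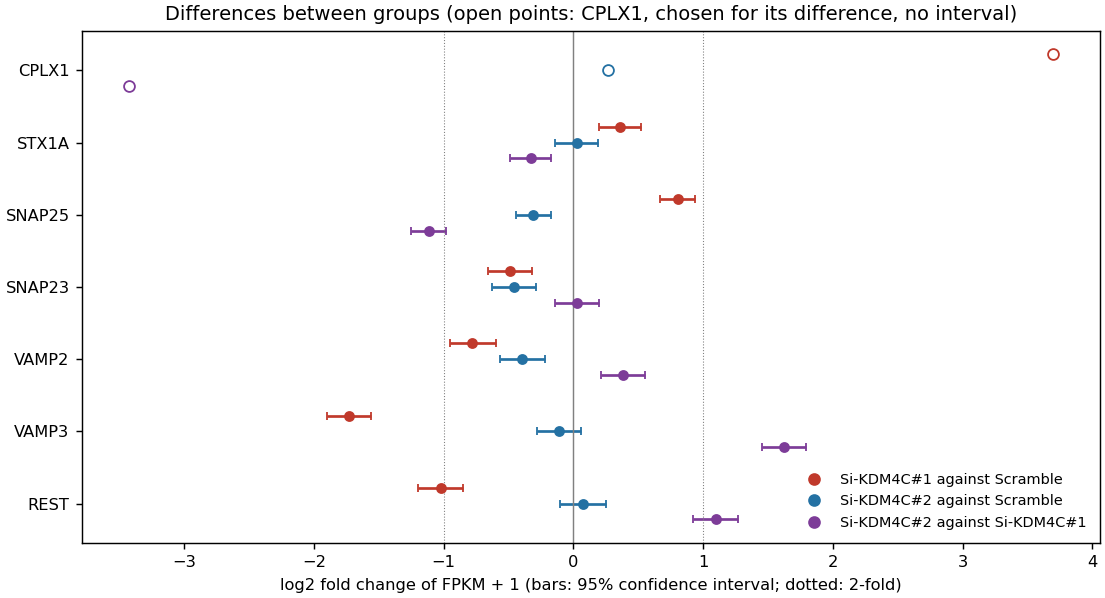
Log2 fold change of FPKM + 1 for the 7 members that passed the filter in each of the 3 comparisons (points), with 95% confidence intervals for the 6 tested and open points without interval for CPLX1. VAMP3 and REST lie beyond the dotted 2-fold line after Si-KDM4C#1 (-1.73 and -1.02) and near 0 after Si-KDM4C#2 (-0.11 and 0.07), and SNAP23 is at -0.49 and -0.46.

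The order of the levels differed between groups. In Scramble it ran VAMP3 (43.7 ± 1.68 FPKM, SD, n = 3), VAMP2 (21.0 ± 1.68), REST (6.21 ± 0.594), SNAP25 (4.21 ± 0.315), SNAP23 (4.11 ± 0.148), STX1A (2.22 ± 0.204) and CPLX1 (1.06 ± 0.258), and only SNAP25 and SNAP23 overlapped. After Si-KDM4C#1 it ran CPLX1 (25.6 ± 1.14), VAMP3 (12.5 ± 1.49), VAMP2 (11.9 ± 1.21), SNAP25 (8.11 ± 0.316), STX1A (3.12 ± 0.183), SNAP23 (2.63 ± 0.181) and REST (2.54 ± 0.287). There VAMP3 and VAMP2 overlapped, as did SNAP23 and REST. CPLX1 went from the lowest of these 7 mRNAs in Scramble to the highest after Si-KDM4C#1. After Si-KDM4C#2 the order was VAMP3 (40.3 ± 1.78), VAMP2 (15.7 ± 0.723), REST (6.56 ± 0.153), SNAP25 (3.21 ± 0.157), SNAP23 (2.72 ± 0.311), STX1A (2.27 ± 0.108) and CPLX1 (1.47 ± 0.266), and SNAP23 and STX1A met at 2.39 FPKM.

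The counts that follow, of genes past the FDR in lists of the pathway, stand beside 31.7% higher and 33.9% lower over all tested genes after Si-KDM4C#1, 34.4% and 25.0% after Si-KDM4C#2, and 35.9% and 26.5% between the siRNAs. The medians of all tested genes were -0.03, 0.06 and 0.08. Of the 8 other Q-SNAREs of the plasma membrane, all listed, 5 were tested. After Si-KDM4C#1 3 were higher and 0 lower, after Si-KDM4C#2 2 higher and 1 lower, and none passed the fold change. STX3, a syntaxin of apical and granule exocytosis, rose after Si-KDM4C#1 (0.42, limma adjusted p = 0.00175) and fell after Si-KDM4C#2 (-0.47, limma adjusted p = 0.00117). STX2 rose after Si-KDM4C#2 (0.82, limma adjusted p = 1.67e-05) and SNAP47 after Si-KDM4C#1 (0.34, limma adjusted p = 0.000169). STX4, the syntaxin of constitutive and glucose transporter exocytosis, was at 0.15 and 0.17 (limma adjusted p = 0.0417 and 0.0325), calls near the threshold. They were lost with no filter on low values (limma adjusted p = 0.0749 and 0.0611), without Scramble replicate 2 (0.117 and 0.0968) and without Scramble replicate 3 (0.102 and 0.085), among other settings. SNAP29, at 10.5 FPKM in Scramble, did not pass.

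All 7 other R-SNAREs were tested. After Si-KDM4C#1 1 was higher and 3 lower, and after Si-KDM4C#2 0 were higher and 5 lower, with list medians of -0.13 and -0.31. VAMP7, of late endosomes and lysosome exocytosis, fell from 27.9 ± 2.20 FPKM (SD, n = 3) to 9.48 ± 0.0479 after Si-KDM4C#1 (log2 fold change -1.46, limma adjusted p = 4.31e-08) and to 22.1 ± 1.05 after Si-KDM4C#2 (-0.32, limma adjusted p = 0.000999). VAMP1, the close relative of VAMP2, also fell with both (-0.84 and -0.48, limma adjusted p = 1.63e-05 and 0.000886). YKT6, of Golgi traffic, rose after Si-KDM4C#1 from 34.2 to 68.1 FPKM (0.97, limma adjusted p = 3.58e-07) and was at 36.1 after Si-KDM4C#2. VAMP8, of regulated secretion, fell after Si-KDM4C#2 (-0.31, limma adjusted p = 0.000902). The summed level of these 7 ran from 133 to 141 FPKM in Scramble, 134 to 149 after Si-KDM4C#1 and 112 to 122 after Si-KDM4C#2.

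Of 20 factors that prime, clamp or take apart SNARE bundles, 14 were tested, with 4 higher and 4 lower with either siRNA. UNC13A, a priming factor of synaptic vesicles, rose from 0.0409 ± 0.00843 FPKM to 3.88 ± 0.338 after Si-KDM4C#1 (SD, n = 3; log2 fold change 2.23, limma adjusted p = 1.07e-07) and was at 0.129 ± 0.0333 after Si-KDM4C#2. It passed the filter through Si-KDM4C#1 alone, so it had to differ. TXLNA, a syntaxin-binding protein, rose with both (1.07 and 0.55, limma adjusted p = 1.07e-07 and 1.09e-05). UNC13D, which primes lytic granules, fell with both (-0.97 and -0.76, limma adjusted p = 6.52e-06 and 5.1e-05). NSF, the ATPase that takes SNARE bundles apart, was at 13.8 FPKM in Scramble, 23.4 after Si-KDM4C#1 and 12.6 after Si-KDM4C#2 (difference between the siRNAs -0.84, limma adjusted p = 1.9e-06). DOC2A passed the filter through Si-KDM4C#2 alone (1.32 FPKM, from 0.402 in Scramble). UNC13A is among the 4 higher after Si-KDM4C#1, and DOC2A among the 4 higher after Si-KDM4C#2. Neither count of higher genes is thus support for a rise of the list.

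Synaptotagmins, a family that includes the calcium sensors that act with complexins, and synaptotagmin-like proteins were mostly at low levels. Of 21 in the list 19 were listed and 5 tested, and no untested member exceeded 0.793 FPKM in any library. SYT1 and SYT2, the fast sensors of synapses, averaged at most 0.183 and 0.203 FPKM in any group. After Si-KDM4C#1 0 of the 5 were higher and 4 lower, beside 31.7% and 33.9% of all tested genes, and after Si-KDM4C#2 0 were higher and 2 lower, beside 34.4% and 25.0%. The medians of the list were -0.80 and -0.24, beside -0.03 and 0.06 over all tested genes. SYTL4 (granuphilin), which docks secretory granules, fell with both siRNAs (-0.96 and -0.45, limma adjusted p = 3.77e-06 and 0.000856). SYT12 fell after Si-KDM4C#1 from 9.79 ± 0.782 to 4.79 ± 0.136 FPKM (SD, n = 3; -0.90, limma adjusted p = 9.48e-07) and was at 8.83 ± 0.399 after Si-KDM4C#2. SYTL5 fell likewise (-0.80, limma adjusted p = 6.27e-06). SYT12, SYT17, SYTL4 and SYTL5 were the 4 lower after Si-KDM4C#1. SYT7, the other gene tested, did not pass with either siRNA (-0.21 and -0.24, limma adjusted p = 0.115 and 0.0855). The counts and medians thus mix synaptotagmins with synaptotagmin-like proteins and do not speak for calcium sensors alone.

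Genes of the corepressors that REST recruits moved in both directions. All 12 were tested. After Si-KDM4C#1 3 were higher and 6 lower, beside 31.7% and 33.9% of all tested genes, and after Si-KDM4C#2 5 were higher and 3 lower, beside 34.4% and 25.0%. Between the siRNAs 9 were higher after Si-KDM4C#2 and 0 lower, beside 35.9% and 26.5%. RCOR1 (CoREST), the scaffold of the REST complex, fell from 25.2 to 12.6 FPKM after Si-KDM4C#1 (-0.95, limma adjusted p = 1.09e-07). HDAC2, a histone deacetylase, fell after Si-KDM4C#1 (-1.07, limma adjusted p = 2.79e-07), while HDAC1 rose with both siRNAs from 21.4 to 47.2 and 48.5 FPKM (1.11 and 1.15, limma adjusted p = 2.35e-08 and 4.65e-08). KDM1A (LSD1), the demethylase of the complex and the highest gene of the list, went from 92.0 to 59.3 and 65.5 FPKM. SMARCA4, a chromatin remodelling ATPase, differed most between the siRNAs (1.48, limma adjusted p = 5.32e-07).

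Of 25 neuronal genes known as REST targets, 22 were listed and 9 tested, and 10 of the 25 stand in another list as well. Of the 9 tested, 5 were higher and 2 lower after Si-KDM4C#1, 3 were higher and 0 lower after Si-KDM4C#2, and the medians were 0.57 and 0.14. SYP (synaptophysin, of synaptic vesicles) went from 0.211 ± 0.0267 to 4.27 ± 0.487 FPKM after Si-KDM4C#1 (SD, n = 3; 2.12, limma adjusted p = 1.32e-07) and was at 0.440 ± 0.0781 after Si-KDM4C#2. VGF, a neuropeptide precursor, went from 0.289 to 4.41 FPKM (2.07, limma adjusted p = 2.38e-07) and was at 0.425 after Si-KDM4C#2. SYP, VGF and UNC13A passed the filter through Si-KDM4C#1 alone and so had to differ. Neither the count of 5 nor the median of 0.57, which both include them, is support for a rise of the list. L1CAM, an adhesion molecule, was expressed throughout and rose with both siRNAs, from 52.0 to 80.5 and 84.8 FPKM (0.62 and 0.70, limma adjusted p = 4.6e-07 and 4.33e-07). CELSR3, a cadherin of axon guidance, rose after Si-KDM4C#2 (0.85, limma adjusted p = 2.18e-05). GRIN1, a glutamate receptor subunit, was at 0.665, 0.196 and 1.35 FPKM and passed the filter through Si-KDM4C#2 alone. It is among the 3 higher after Si-KDM4C#2, so that count is no support either.

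The 13 listed targets that failed the filter did not exceed 0.402 FPKM in any library. Among them SYT4 was listed at 0 in Scramble and averaged 0.259 FPKM after Si-KDM4C#1 and 0.00483 after Si-KDM4C#2. The means in Scramble, Si-KDM4C#1 and Si-KDM4C#2 were 0.0162, 0.141 and 0.0158 FPKM for SCG2, 0.0594, 0.252 and 0.113 for CHRNB2, and 0.168, 0.347 and 0.173 for TUBB3. SYN1, SCG3, CHGA, CHGB, GRIA2, NPAS4, SCN2A and KCNH2 averaged at most 0.0714 FPKM in any group, and SCN3A was at 0.0442, 0.0115 and 0.122 FPKM. None of the 13 was tested. Of 10 markers of neuronal and neuroendocrine cells 8 were listed and 1, SYP, was tested. Their sum ran from 0.624 to 0.863 FPKM in Scramble, 4.51 to 5.58 after Si-KDM4C#1 and 0.994 to 1.42 after Si-KDM4C#2. No marker other than SYP exceeded 0.516 FPKM. SYP, at a mean of 4.27 FPKM, made up most of the sum after Si-KDM4C#1 and passed the filter through that group alone. The sum is thus no support for a rise of the list. The part of other cell types in the CPLX1 values was not tested.

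**Figure D3:**
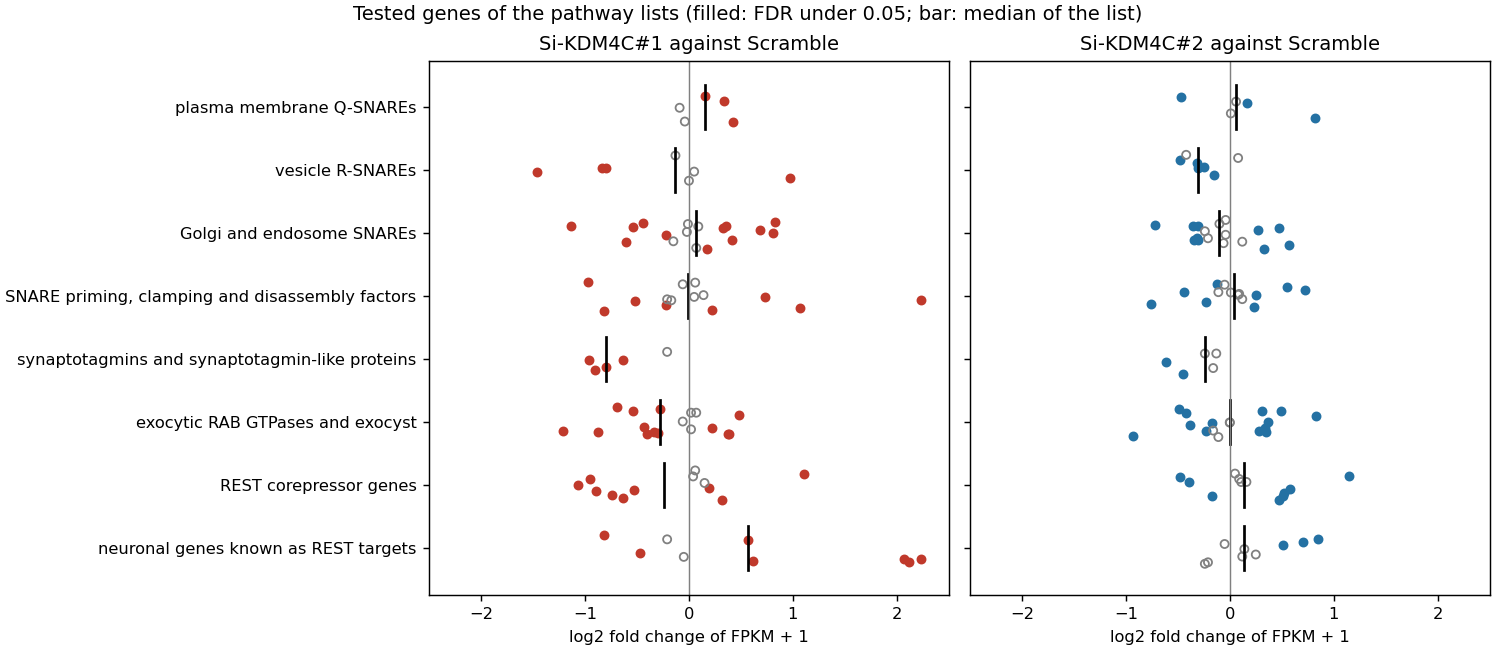
Log2 fold change of FPKM + 1 for each tested gene of 8 pathway lists, after Si-KDM4C#1 (left) and Si-KDM4C#2 (right) against the same Scramble libraries, where filled points passed an FDR of 0.05 and bars are list medians. The synaptotagmins and synaptotagmin-like proteins after Si-KDM4C#1 have a median of -0.80, and the 3 points above 2 among the REST targets are UNC13A, SYP and VGF.

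Of 16 listed genes within 200 kb of CPLX1, 12 were tested. Their log2 fold changes ran from -0.70 to 0.33 after Si-KDM4C#1, with 2 higher and 5 lower beside 31.7% and 33.9% of all tested genes. After Si-KDM4C#2 they ran from -0.56 to 0.97, with 5 higher and 1 lower beside 34.4% and 25.0%. Among those 5, SLC26A1 was at 0.737, 0.909 and 1.74 FPKM in Scramble, Si-KDM4C#1 and Si-KDM4C#2. It passed the filter through Si-KDM4C#2 alone, so its call is no support. The counts and ranges describe the neighbours alone, since CPLX1 was chosen for its difference. GAK, a kinase of clathrin uncoating whose end lies 23.1 kb from CPLX1, was at 6.05, 7.87 and 8.80 FPKM. PCGF3, a Polycomb RING protein 14.3 kb away on the other side, was at 7.60, 6.92 and 8.40 FPKM, with no call against Scramble. The nearest listed gene, the antisense transcript AC139887.2 at 3.1 kb, was lower after Si-KDM4C#1 (-0.70, limma adjusted p = 7.13e-05). IDUA and FGFRL1, a lysosomal enzyme and a receptor, fell after Si-KDM4C#1 (-0.62 and -0.54) and rose after Si-KDM4C#2 (0.68 and 0.62).

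**Figure D4:**
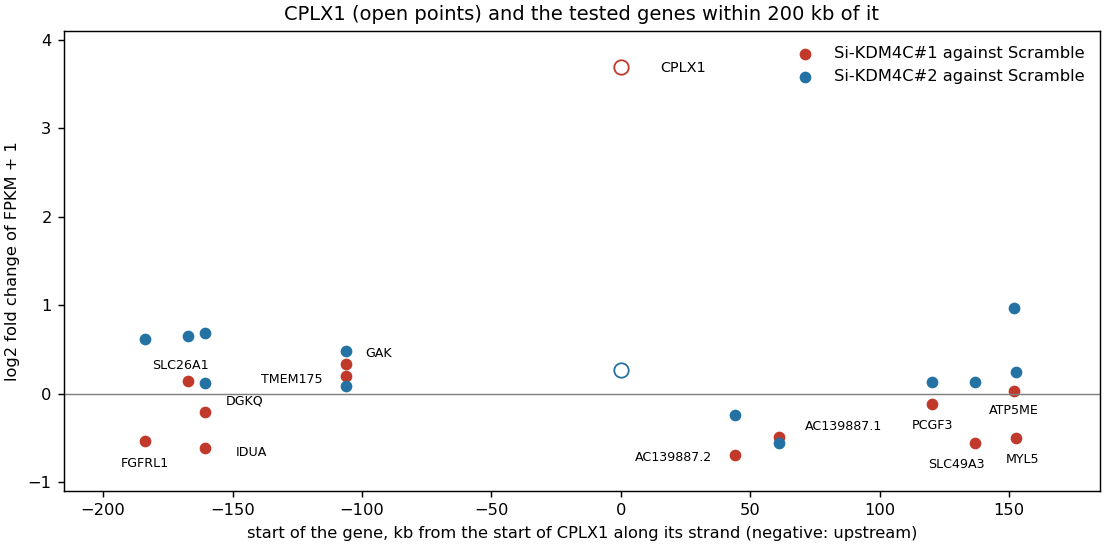
Log2 fold change of FPKM + 1 against the distance in kb between the start of each tested neighbour and that of CPLX1 along its strand, for both siRNAs against Scramble. The neighbours lie between -0.70 and 0.33 after Si-KDM4C#1 and between -0.56 and 0.97 after Si-KDM4C#2, and CPLX1, chosen for its difference, is drawn as open points (3.70 and 0.27) to mark its place.

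The genes with the most similar profile were found by the root mean square difference of centred log2(FPKM + 1) over the 9 libraries, whose median over the tested genes was 1.73. CYR61, a secreted matrix protein, was closest (0.497) at 10.0, 73.0 and 12.6 FPKM in Scramble, Si-KDM4C#1 and Si-KDM4C#2. MMP24, a membrane metalloprotease (0.557), was at 1.25, 11.1 and 1.23 FPKM. BBC3 (PUMA), a trigger of apoptosis (0.584), was at 2.71, 19.7 and 3.35 FPKM. UNC13A (0.675) and NECTIN4, an adhesion molecule (0.682), came next, the latter at 1.22, 9.01 and 0.171 FPKM. The closest mirror images were UQCRB, a subunit of respiratory complex III (0.290), at 19.1, 1.39 and 18.5 FPKM, HMGN5, which binds nucleosomes (0.408), and HTATSF1 (0.444). These values only describe likeness over libraries in 3 groups.

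**Figure D5:**
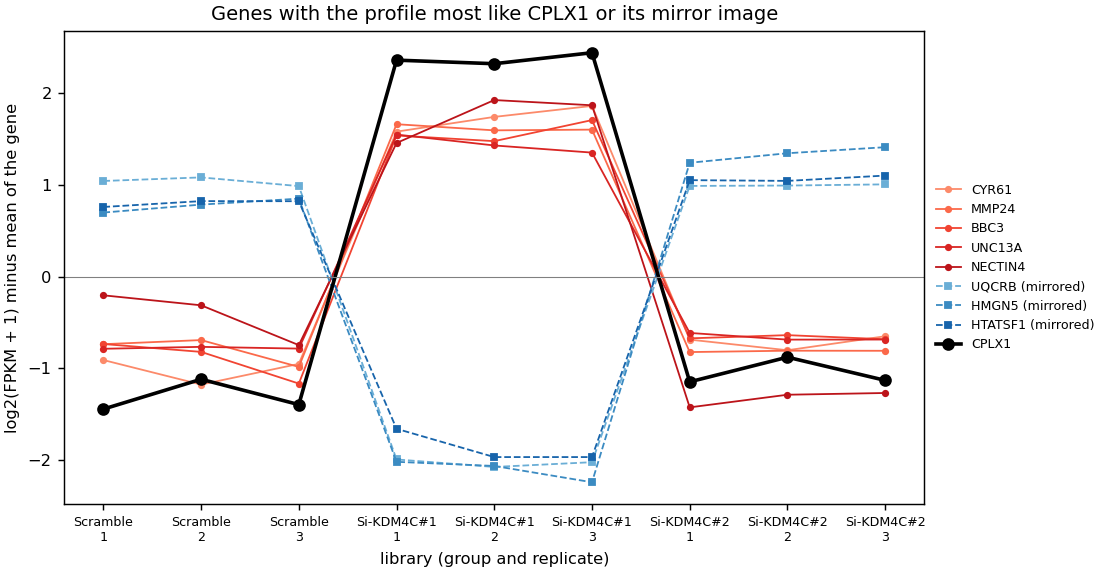
Log2(FPKM + 1) minus the mean of the gene in each of the 9 libraries for CPLX1 (black), the 5 genes with the most similar profile (red) and the 3 with the most similar mirrored profile (blue, dashed). All of the red lines are high in the 3 libraries after Si-KDM4C#1, NECTIN4 is lowest after Si-KDM4C#2, and the blue lines are low after Si-KDM4C#1.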

How the data were processed

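Total RNA of 9 Huh7 libraries was sequenced paired-end, and the authors deposited FPKM per gene. The submitters' processing notes name FastQC 0.11.5, HISAT2 2.1.0, StringTie 1.3.3b, featureCounts, DESeq 1.28.0 and GRCh38, with no roles. The strand setting is not given in the sources used here. Multiplied by GENCODE 29 exon lengths and a fitted total per library, 97.54 to 97.68% of values above 0 came out whole (within 0.05), which gave the fragments. Groups and replicates came from the sample titles.

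Genes reaching a mean of 1 FPKM in any group (14363) were compared on log2(FPKM + 1) with limma-trend 3.58.1 (R 4.3.3), 9 libraries in 1 fit, no covariates, and Benjamini-Hochberg adjustment over all tested genes. Calls were FDR under 0.05, with or without a fold change above 2. Single values were compared by exact permutation. Scripts were tested on simulated data. Tables and plots were made in Python 3.11.15 (pandas 2.3.3, scipy 1.17.1, numpy 2.4.6, matplotlib 3.10.9).

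Named were KDM4C, the 8 members, neighbours within 200 kb, the 5 most alike and 3 most mirrored genes and, per list and comparison, up to 3 passing genes with the largest change and the highest gene. The marker, SYT1, SYT2, SYT7 and low REST target values, genes overlapping members and those next in rank were chosen after values were seen. The members and lists were chosen with earlier results of these data known. Alternatives were a pseudocount of 0.1, quantile normalization, a filter on the overall mean or none, the 6 libraries compared, a replicate block, limma voom on recovered fragments and leaving out each library. Lists took in complexins, Q-SNAREs, R-SNAREs, Golgi and endosome SNAREs, priming factors, synaptotagmins, RAB GTPases and exocyst, REST corepressors and targets, and hepatocyte and neuronal markers.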

Additional observations from a re-analysis of the deposited data

Results flagged for a closer look

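For 5 of the 6 tested members the effect of the siRNAs differed in the direct test between them (limma, adjusted over all tested genes), given here as Si-KDM4C#2 minus Si-KDM4C#1 on the log2 scale. REST (1.10), VAMP3 (1.62) and VAMP2 (0.38) were higher after Si-KDM4C#2. SNAP25 (-1.11) and STX1A (-0.33) were lower. In each case all 3 libraries of one siRNA lay on one side of all 3 of the other. How many of all tested genes separate in this way was not counted, so the separation does not set these members apart. The comparison of each siRNA with Scramble uses the same 3 Scramble libraries, whereas the direct difference between the siRNAs does not use them. Over all tested genes, 35.9% were higher and 26.5% lower in the same comparison.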

How the results depend on the processing

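With a pseudocount of 0.1, and then with limma voom on recovered fragments, genes past FDR and fold change numbered 2302 and 3023 after Si-KDM4C#1 (from 1274), 1443 and 1993 after Si-KDM4C#2 (from 703), and 1937 and 2566 between the siRNAs (from 992). CPLX1 went to 4.50 and 4.67 after Si-KDM4C#1 and to -4.04 and -4.25 between the siRNAs, and the pseudocount took it to 0.45 after Si-KDM4C#2. The smaller pseudocount gives low values more weight by construction. VAMP3 after Si-KDM4C#2 passed after quantile normalization (-0.21) and voom (-0.18). STX1A after Si-KDM4C#2 turned to -0.03 with voom, and to -0.02 without Scramble replicate 2 and -0.00 without Si-KDM4C#2 replicate 1. SNAP23 between the siRNAs turned to -0.11 (quantile), -0.08 (voom) and -0.02 (without Si-KDM4C#2 replicate 1). The cause was not tested. In both comparisons that involve Si-KDM4C#1, REST stayed past the FDR under every setting run, but fell short of a 2-fold change after quantile normalization (-0.94 after Si-KDM4C#1, 0.96 between the siRNAs) and, after Si-KDM4C#1, without Scramble replicate 2 or Si-KDM4C#1 replicate 3 (-0.96 each). STX1A after Si-KDM4C#2 and SNAP23 between the siRNAs, whose signs changed, did not pass the FDR under any setting.

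Fits without 1 library each gave 1199 to 1365, 702 to 770 and 944 to 1054 genes past FDR and fold change in the comparisons, and CPLX1 values of 3.64 to 3.80, 0.18 to 0.37 and -3.52 to -3.38. STX1A after Si-KDM4C#2 ran from -0.02 to 0.07 and SNAP23 between the siRNAs from -0.02 to 0.10. The number of members past FDR stayed at 6, 3 and 5.

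The replicate numbers did not pair the libraries: same-numbered libraries had correlations of deviations from -0.0461 to 0.0546. With the replicate block 1273, 703 and 992 genes passed FDR and fold change, 6, 3 and 5 members passed FDR, and CPLX1 was at 3.70, 0.27 and -3.43.

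Of the named list genes, STX4 lost its calls against Scramble in 6 alternatives and 10 fits without 1 library, counted over both siRNAs. With the replicate block its adjusted p after Si-KDM4C#1 was 0.0597 (limma), and the block changed no other call of a member or named gene. Depth limits CPLX2 and the low CPLX1 groups to counts of 0 to 67 fragments per library.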

Other observations

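SNAREs of the Golgi and endosomes, which serve traffic inside the cell, were all expressed. All 17 were tested, with 7 higher and 5 lower after Si-KDM4C#1 (31.7% and 33.9% of all tested genes) and 4 higher and 6 lower after Si-KDM4C#2 (34.4% and 25.0%). The medians were 0.07 and -0.10, beside -0.03 and 0.06 over all tested genes. STX17, the syntaxin of autophagosome fusion, fell from 5.19 ± 0.744 FPKM (SD, n = 3) to 1.80 ± 0.193 after Si-KDM4C#1 (log2 fold change -1.14, limma adjusted p = 3.49e-06) and rose to 7.54 ± 0.374 after Si-KDM4C#2 (0.47, limma adjusted p = 0.00173). STX10, the highest of the list, rose with both siRNAs from 31.9 to 57.5 and 47.7 FPKM (0.83 and 0.57, limma adjusted p = 9.89e-07 and 1.96e-05). BET1L rose after Si-KDM4C#1 (0.81, limma adjusted p = 5.18e-06), and GOSR1, a Golgi SNARE, fell after Si-KDM4C#2 (-0.72, limma adjusted p = 5.79e-06).

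Of 19 exocytic RAB GTPases and exocyst subunits, which carry and tether vesicles before SNAREs engage, 17 were tested. After Si-KDM4C#1 4 were higher and 9 lower (31.7% and 33.9% of all tested genes), and after Si-KDM4C#2 7 were higher and 6 lower (34.4% and 25.0%). Between the siRNAs 12 were higher after Si-KDM4C#2 and 3 lower (35.9% and 26.5%). RAB27B, of granule docking, was at 2.32 ± 0.283 FPKM (SD, n = 3) in Scramble, 0.434 ± 0.0555 after Si-KDM4C#1 and 0.737 ± 0.0586 after Si-KDM4C#2. It passed the filter through Scramble alone, so it had to differ and its calls are no support. RAB8B fell after Si-KDM4C#1 (-0.88, limma adjusted p = 4.16e-06) and was at 8.84 FPKM after Si-KDM4C#2, beside 8.80 in Scramble. EXOC5 rose after Si-KDM4C#2 from 5.31 to 10.2 FPKM (0.83, limma adjusted p = 2.04e-06), and EXOC6 fell after Si-KDM4C#1 (-0.69, limma adjusted p = 9.69e-06).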
